A study of Mus musculus with 24 samples.

Results

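The 10 acute phase protein genes *Saa1*, *Saa2*, *Saa3*, *Orm1*, *Orm2*, *Hp*, *Lcn2*, *Crp*, *Fgb* and *Hpx* were chosen by symbol from the 48820 entries of the liver count table, and each symbol had 1 entry there and in each of the 3 sorted-cell tables. The study asked how GDF2 and BMP10, circulating ligands of the receptor ALK1 made by hepatic stellate cells (HSCs), shape liver macrophages, endothelial cells (ECs) and the whole liver. Livers were taken at 12 weeks from Gdf2/Bmp10HSC-KO mice (Gdf2fl/fl Bmp10fl/fl LratCre, in which the *Lrat* promoter drives Cre in HSCs) and from littermate controls. ECs (gated as CD45- CD31+) and liver macrophages (gated as CD45+, Ly6C-, F4/80+ and CD64+) came from mice of these genotypes at 8 to 10 weeks. Macrophages were also sorted at 8 to 10 weeks from Smad4fl/fl Vav1Cre mice (Smad4 cKO), in which Cre is active in blood-forming cells and their progeny, and from Smad4FF controls. All mice were C57BL/6, and each of the 8 groups had 3 mice and 1 library per mouse. For 3 of the mice the labels list an EC library as well as a macrophage one.

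The acute phase response is the change in plasma proteins that follows infection or tissue injury, and it is set mainly in hepatocytes. IL-6 and related cytokines signal through the receptor chain encoded by *Il6st* to the transcription factor STAT3, IL-1 and TNF signal to NF-kB, and C/EBP factors act with both on the promoters of acute phase genes. In the mouse, serum amyloid A and orosomucoid genes and *Lcn2* respond strongly, *Hp*, *Hpx* and *Fgb* respond moderately, and *Crp*, a leading marker in humans, responds little.

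*Saa1*, *Saa2* and *Saa3* encode serum amyloid A proteins, apolipoproteins that ride on HDL. They lie in 1 cluster on chromosome 7, with *Saa4* between *Saa3* and *Saa1* (GENCODE vM21, GRCm38), with *Saa3* at chr7:46711998-46715700 on the minus strand, *Saa1* at chr7:46740497-46742980 on the minus strand and *Saa2* at chr7:46751790-46754313 on the plus strand. The 250 bases upstream of their RefSeq start sites, which for *Saa2* and *Saa3* lie inside the GENCODE gene spans, are shown because *Saa1* and *Saa2* ranked nearly alike over the 6 livers while *Saa3* did not. The sequences are from RefSeq on GRCm38.p6 at chr7:46742981-46743230 (minus strand) for *Saa1*, chr7:46751583-46751832 (plus strand) for *Saa2* and chr7:46715677-46715926 (minus strand) for *Saa3*, and the capitals mark the C/EBP motif TTGCNNAA on either strand.
Saa1: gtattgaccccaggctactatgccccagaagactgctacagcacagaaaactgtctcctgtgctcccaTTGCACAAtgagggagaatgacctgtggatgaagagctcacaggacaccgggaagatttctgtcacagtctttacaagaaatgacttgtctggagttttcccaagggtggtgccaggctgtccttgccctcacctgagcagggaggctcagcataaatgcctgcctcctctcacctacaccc
Saa2: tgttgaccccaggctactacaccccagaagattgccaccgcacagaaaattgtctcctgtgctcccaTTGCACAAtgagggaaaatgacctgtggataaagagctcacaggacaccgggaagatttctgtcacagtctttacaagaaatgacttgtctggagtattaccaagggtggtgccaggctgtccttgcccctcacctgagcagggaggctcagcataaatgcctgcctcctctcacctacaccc
Saa3: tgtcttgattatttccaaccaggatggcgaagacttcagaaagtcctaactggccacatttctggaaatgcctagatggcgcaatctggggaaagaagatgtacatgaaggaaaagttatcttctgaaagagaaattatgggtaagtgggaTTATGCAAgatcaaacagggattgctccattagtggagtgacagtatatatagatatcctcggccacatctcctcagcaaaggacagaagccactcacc
In a global alignment the *Saa1* and *Saa2* windows were identical at 94.8% of the aligned columns, against 52.2% for *Saa1* and *Saa3* and 52.4% for *Saa2* and *Saa3*. Promoter windows were on hand for 8 of the 10 members, all but *Orm1* and *Hp*. Of these, 7 held the C/EBP motif (all but *Crp*), against 9.56% of all 32851 promoter windows of this length. The STAT motif TTCNNNGAA and the IL-6 response element CTGGGAA were each found in 1 member window, that of *Fgb*, against 7.02 and 9.10% of all windows. The longer motifs searched for NF-kB and HNF1 were in none, against 0.356 and 0.0609% of all windows. A match is a description of letters in this window and not a measured binding site.

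Total counts per library were 60911527 to 110879155 over the 24 libraries, and 3 counts corresponded to at most 0.0524 CPM, the count scaled to a common library size with TMM factors. In the livers *Gdf2* was at 9.38 to 22.5 CPM in controls and 2.12 to 3.84 CPM in HSC-KO mice (log2 fold change -2.55), and *Bmp10* was at 1.99 to 3.28 and 0.0938 to 0.262 CPM (-4.07). *Smad4* in sorted macrophages was at 35.2 to 42.8 CPM in Smad4FF and 12.6 to 17.2 CPM in Smad4 cKO libraries (-1.39). HSC-KO liver replicate 3 stood apart from the other 5 livers, with 0.167 CPM of *Xist* where the others had 303 to 708 CPM. For *Saa1*, *Saa2*, *Lcn2* and *Hpx* the liver results are therefore also given without it. *Xist* was mixed in the sorted cells as well, at 0, 0 and 21.1 CPM in control and 0, 75.5 and 87.2 CPM in HSC-KO macrophages and at 21.5, 0 and 0 CPM in control and 25.4, 0 and 42.7 CPM in HSC-KO ECs, so that libraries with *Xist* were not balanced between genotypes. With *Xist* as a covariate no member was called in these cells. Nothing in the sources used here says more of how the mice of a group were related, and p-values measure only the spread between these libraries.

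In control livers the members spanned a wide range. Per kilobase of their main transcript, levels were 2233 ± 112 CPM for *Hpx*, 1802 ± 110 for *Hp*, 1219 ± 134 for *Fgb*, 582 ± 89.3 for *Orm1* and 205 ± 13 for *Crp* (SD, n = 3). Then followed *Orm2* at 32.7 ± 22.1, *Lcn2* at 32.1 ± 22.1, *Saa1* at 31.6 ± 15.2, *Saa2* at 18.4 ± 8.12 and *Saa3* at 3.88 ± 0.992 CPM per kilobase. Neighbours from *Hpx* down to *Crp* differed by more than their SDs, whereas *Orm2*, *Lcn2*, *Saa1* and *Saa2* could not be ordered beyond their spread. For these 4 genes the SD was a large part of the mean.

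HSC-KO livers did not show a common rise of the acute phase genes. Of the 10 members, 1 was called in the livers (*Saa3*, lower), with called meaning an adjusted p under 0.05 and more than a 2-fold difference in edgeR's quasi-likelihood test. Over all 17118 genes tested 2.48% were called, 1.45% lower and 1.03% higher. No member was called higher. At an unadjusted p under 0.05 there were 4 members (*Saa3*, *Orm2*, *Lcn2* and *Hpx*) beside 12.9% of all genes. Log2 fold changes were negative for 8 members and positive for 2, beside 48.6% positive over all genes, and their median was -0.20 beside -0.01. The groups did not overlap for 5 members, lower in HSC-KO livers for *Saa3*, *Orm2*, *Hp* and *Lcn2* and higher for *Hpx*, while 19.7% of all genes tested did not overlap (10.9% lower and 8.80% higher).

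**Figure D1:**
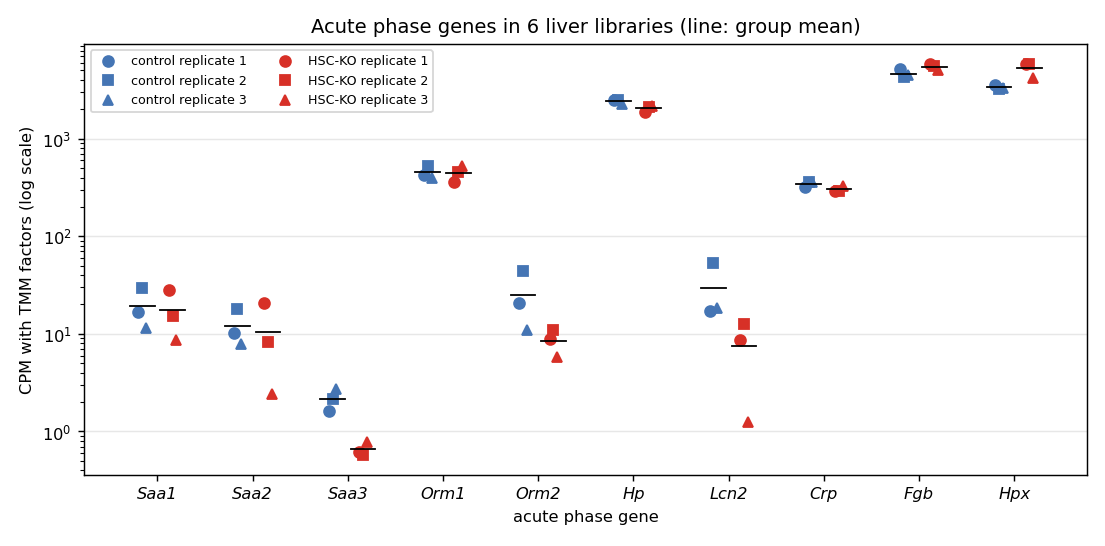
Levels of the 10 acute phase genes in each of the 6 liver libraries, in CPM on a log axis, with the 3 control libraries in blue, the 3 HSC-KO libraries in red, the marker shape giving the replicate and the lines the group means. The HSC-KO points lie below all control points for *Saa3*, *Orm2*, *Hp* and *Lcn2* and above them for *Hpx*, and HSC-KO replicate 3 is the lowest library for *Saa1*, *Saa2*, *Orm2* and *Lcn2*.

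Of the serum amyloid A genes, *Saa3* was called lower and *Saa1* and *Saa2* were not called, and whether their changes differ was not tested. *Saa1* was at 16.8, 29.4 and 11.4 CPM in control replicates 1 to 3 and at 28.4, 15.3 and 8.68 CPM in HSC-KO replicates 1 to 3. In the controls *Saa2* stood at 10.3, 18.0 and 7.80 CPM, and HSC-KO replicates 1 to 3 had 20.6, 8.22 and 2.40 CPM. For both genes the groups overlapped, and the libraries ranked nearly alike. Log2 fold changes were -0.14 for *Saa1* (95% interval -1.23 to 0.95, adjusted p = 0.954 in edgeR) and -0.21 for *Saa2* (-1.77 to 1.35, adjusted p = 0.952), so that differences of more than 2-fold in either direction remained within or close to the intervals. Without HSC-KO replicate 3 the values were 0.19 and 0.26, with adjusted p-values of 0.919 and 0.887 in edgeR.

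*Saa3*, which is made in macrophages, adipocytes and other cells as well as in hepatocytes, was at 1.60, 2.16 and 2.70 CPM in control livers and at 0.616, 0.571 and 0.780 CPM in HSC-KO livers. Every HSC-KO library was thus below every control library, on 46 to 56 counts against 166 to 244. Its log2 fold change was -1.72 (95% interval -2.50 to -0.93, adjusted p = 0.0429 in edgeR). The call was close to the threshold. With any 1 library left out the log2 fold change was -1.88 to -1.5 but the adjusted p was 0.0522 to 0.177 in edgeR, and with the replicate number as a block it was -1.70 with an adjusted p of 0.103.

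Macrophage and neutrophil transcripts were lower in the same livers. All 8 macrophage markers were lower in every HSC-KO library than in any control library and 5 of them were called, among them *Clec4f* and *Vsig4* of Kupffer cells (KCs). Their summed level was 368 to 625 CPM in controls and 57.3 to 95 CPM in HSC-KO livers. The 12 neutrophil markers summed to 7.76 to 12.1 CPM in controls and 2.52 to 4.66 CPM in HSC-KO livers. Of these, 8 were tested, all 8 had negative log2 fold changes and *Csf3r* was called lower, while *Ly6g* was at 0 in every library except HSC-KO replicate 1. In whole-liver counts, fewer cells of a type and less RNA per cell cannot be told apart. For macrophages the paper reports a reduced number in liver sections of HSC-KO mice. With the neutrophil sum as a covariate, which itself separates the groups, the log2 fold change of *Saa3* was -2.71 (adjusted p = 0.398) and 6 genes in all were called in edgeR. In sorted macrophages of the littermate controls *Saa3* had 0 counts in all 3 libraries, where 3 counts were at most 0.0524 CPM. In those of the Smad4FF controls it was at 0.0721 to 0.321 CPM.

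*Lcn2* encodes lipocalin 2, which binds bacterial siderophores and is made by hepatocytes and neutrophils. It was at 17, 52.7 and 18.4 CPM in control livers and at 8.73, 12.6 and 1.24 CPM in HSC-KO livers. The groups did not overlap, but the highest and the lowest library of the 6 stood far from the others of their group. Its log2 fold change was -1.96 (95% interval -3.76 to -0.15, adjusted p = 0.333 in edgeR), and it was -1.46 without HSC-KO replicate 3 (adjusted p = 0.249) and -1.22 without control replicate 2 (adjusted p = 0.712). With the neutrophil sum as a covariate its sign turned, to 1.74 (SE 1.23, adjusted p = 0.826 in edgeR). That sum itself separates the groups, so that this fit cannot tell their parts apart.

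*Orm1* and *Orm2* encode orosomucoids, acidic plasma glycoproteins that bind drugs and lipids, and lie in 1 cluster at chr4:63344560-63348163 and chr4:63362449-63365878. *Orm2* was at 20.6, 44.3 and 11.1 CPM in control livers and at 8.91, 10.9 and 5.75 CPM in HSC-KO livers. The lowest control library, replicate 3, lay just above the highest HSC-KO library. The log2 fold change was -1.57 (95% interval -2.69 to -0.45, adjusted p = 0.190 in edgeR), and it was called by DESeq2 (-1.56, adjusted p = 0.00514). Without control replicate 2, the highest library, it was -0.88. With the neutrophil sum as a covariate, which itself separates the groups, it was 0.68 (SE 0.94, adjusted p = 0.933 in edgeR). *Orm1*, the more abundant copy, was at 395 to 528 CPM in controls and 357 to 528 CPM in HSC-KO livers, with a log2 fold change of -0.01 (95% interval -0.45 to 0.42). *Orm1* and *Orm2* transcripts share 20.4% of their 50-base windows and *Saa1* shares 9.11% of its windows with *Saa2*, so that the split of reads within each pair is uncertain.

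*Hpx* encodes hemopexin, the plasma carrier of free heme. It was at 3528, 3196 and 3320 CPM in control livers and at 5828, 5887 and 4184 CPM in HSC-KO livers. All HSC-KO libraries were above all controls, with replicate 3 the nearest to them. The log2 fold change was 0.66 (95% interval 0.29 to 1.04, adjusted p = 0.0936 in edgeR). Without HSC-KO replicate 3 it was 0.81 with an adjusted p of 0.0230 in edgeR, a difference of less than 2-fold. Over 15 alternative fits it was 0.55 to 1.23, with adjusted p-values of 0.00214 to 0.422 in edgeR or DESeq2, and *Hpx* was called in none of them. The 9 hepatocyte markers also summed to more in HSC-KO livers, 125100 to 168659 CPM against 98650 to 118324 CPM. Most of this sum is *Alb*, which was at 105485 to 148338 CPM in HSC-KO livers and 79885 to 99427 CPM in controls. Of the 9 log2 fold changes 7 were positive, with a median of 0.08, and none was called. All HSC-KO libraries were above all controls for 2 of the markers and below them for 1, and for 6 the groups overlapped.

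*Hp* encodes haptoglobin, the carrier of free hemoglobin. It was at 2254 to 2509 CPM in control livers and 1880 to 2146 CPM in HSC-KO livers, and its log2 fold change was -0.25 (95% interval -0.54 to 0.04, adjusted p = 0.490 in edgeR). *Crp* encodes C-reactive protein, a pentraxin, and was at 322 to 364 and 288 to 329 CPM (-0.20, 95% interval -0.49 to 0.09). *Fgb* encodes the beta chain of fibrinogen, and was at 4248 to 5219 and 5086 to 5865 CPM (0.24, 95% interval -0.07 to 0.55). For these 3 abundant genes the intervals left out a 2-fold difference in either direction, as did that of *Orm1*.

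Together the 10 genes made up 1.28, 1.14 and 1.10% of all counts in control livers and 1.34, 1.41 and 1.18% in HSC-KO livers. With TMM factors the sums were 10837 to 12072 CPM and 12291 to 14302 CPM, and the log2 ratio of the group means was 0.27. Without these factors the ratio was 0.16 and the groups overlapped. *Fgb*, *Hpx* and *Hp*, the most abundant members, weigh most in this sum, and of these *Hp* was lower in HSC-KO livers.

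The genes with the pattern most like that of *Saa1* over the 6 livers, by Pearson's r of log2 CPM among 8541 compared genes, were *Sned1* (0.970), *Nudt16l1* (0.969), *Fkbp15* (0.966), *Tmem106c* (0.959) and *Hmgb3* (0.949). Those most like *Lcn2* were *Ggh* (0.995), *AW112010* (0.992), *Map4k2* (0.990), *Slc16a7* (0.990) and *Lyz2* (0.989). These are descriptions over 6 libraries that share 2 groups. Their own adjusted p-values in edgeR were 0.224 to 0.992, and none was called.

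Other genes of the response gave a like picture in the livers. Of 19 other positive acute phase genes, all were tested and none was called by edgeR (2 at an unadjusted p under 0.05), with 9 log2 fold changes positive, 10 negative and a median of -0.04. The most abundant were *C3*, the central complement component, at 11758 to 12105 CPM in controls and 11402 to 18325 CPM in HSC-KO livers, and *Fga*, the fibrinogen alpha chain, at 5200 to 7571 and 6991 to 7602 CPM, and for both the groups overlapped. Of 8 negative acute phase genes, whose levels fall in a response, none was called (2 at an unadjusted p under 0.05), with *Alb* and *Trf*, the transferrin gene, above all controls in every HSC-KO library. Of 9 transcription factor genes, 7 receptor genes and 6 feedback targets none was called either, with 1 in each list at an unadjusted p under 0.05. The abundant receptor chains *Lifr* and *Il6st* were at 304 to 488 and 203 to 231 CPM in controls and at 350 to 395 and 158 to 193 CPM in HSC-KO livers, below all controls for *Il6st* (log2 fold change -0.31, adjusted p = 0.367 in edgeR). The hepatocyte factors *Hnf4a* and *Cebpa* had log2 fold changes of 0.09 and 0.10, and the NF-kB regulators *Nfkbia* and *Bcl3* had -0.28 and -0.39. A further 2 genes, named after their values were seen, had no common direction in the HSC-KO livers. *Mt1*, a metallothionein, was at 22.6, 73.0 and 38.7 CPM in controls and 128, 238 and 12.2 CPM in HSC-KO livers. *Socs3*, a feedback target of STAT3, was at 6.89, 4.42 and 7.02 CPM in controls and 4.37, 11.8 and 8.94 CPM in HSC-KO livers.

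Among 8 cytokine genes of the response, 5 were tested in the livers and *Il1a*, which encodes interleukin 1 alpha, was called lower, beside 1.45% of all genes. *Il1a* was at 4.83, 5.30 and 3.77 CPM in control livers and at 0.228, 0.309 and 0.125 CPM in HSC-KO livers. Its log2 fold change was -4.37 (SE 0.39, adjusted p = 0.00188 in edgeR). Left out 1 at a time, the libraries gave -4.70 to -4.10, all called. With the neutrophil sum as a covariate it was -2.85 (adjusted p = 0.318). *Il6* was at 0 to 0.104 CPM in all 6 livers, and *Il1b* was at 2.08 to 5.28 CPM in controls and 0.265 to 1.62 CPM in HSC-KO livers (-1.95, adjusted p = 0.217).

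**Figure D2:**
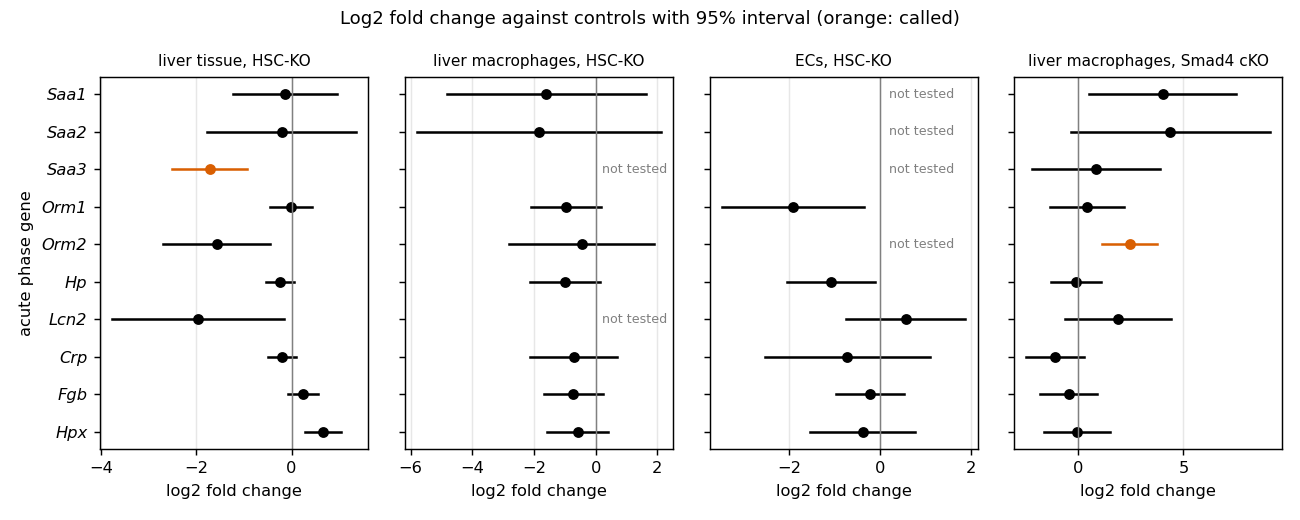
Log2 fold changes of the 10 acute phase genes against their controls with 95% intervals from edgeR, in livers, sorted macrophages and sorted ECs of HSC-KO mice and in macrophages of Smad4 cKO mice (each panel has its own axis). Orange marks the called genes, *Saa3* in livers and *Orm2* in Smad4 cKO macrophages, and the intervals of most other members include 0.

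The levels of the members in sorted cells were set beside those of hepatocyte transcripts in the same libraries. RNA carried over from hepatocytes and RNA made by the sorted cells cannot be told apart in these counts. Hepatocyte markers in the sorted libraries, as the median over 9 markers of the level relative to livers of the same genotype, were at 0.265, 0.812 and 0.957% of the liver level in control macrophages and 0.365, 0.232 and 0.452% in HSC-KO macrophages. In ECs they were at 0.0760 to 0.119% in controls and 0.0433 to 0.0585% in HSC-KO mice. A ratio was then formed for each member, its measured level over the level that this share of the liver level would give. The livers were from other mice, and in the *Smad4* experiment the control livers stood in for both groups.

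*Fgb*, *Hpx*, *Hp* and *Orm1* stayed within 3-fold of that level in macrophages and ECs of HSC-KO mice and their controls. The ratio of *Fgb* was 1.58 to 2.20 over the 6 macrophage libraries and 0.857 to 2.52 over the 6 EC libraries. For *Hpx* it was 1.03 to 1.45 and 0.421 to 1.27, for *Hp* 1.53 to 2.98 and 0.718 to 1.83, and for *Orm1* 1.13 to 2.12 and 0.515 to 2.13. *Crp* was below it in macrophages, with ratios of 0.294 to 0.988. The other members had few counts in macrophages and scattered more widely. *Orm2* was at 0.353 to 1.20 in controls and 1.84 to 6.38 in HSC-KO libraries, *Saa1* and *Saa2* reached 5.51 and 4.42, *Lcn2* reached 9.54 and *Saa3* was at 19.1 and 69.0 in HSC-KO replicates 1 and 2 (4 and 10 counts). For *Orm2*, *Lcn2* and *Saa3* the liver level used as reference was itself lower in HSC-KO mice. In CPM the macrophage groups overlapped for *Orm2*, at 0.0236 to 0.247 in controls and 0.0570 to 0.164 in HSC-KO libraries (log2 fold change -0.46). The reference level was itself uncertain, since single hepatocyte markers ran from 0.0037 to 0.311% of the liver level in control EC replicate 2. With *Alb* alone as the reference the ratios reached 4.15 for *Fgb*, 4.0 for *Hp* and 3.23 for *Orm1*, and 1.06 for *Crp* in macrophages.

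**Figure D3:**
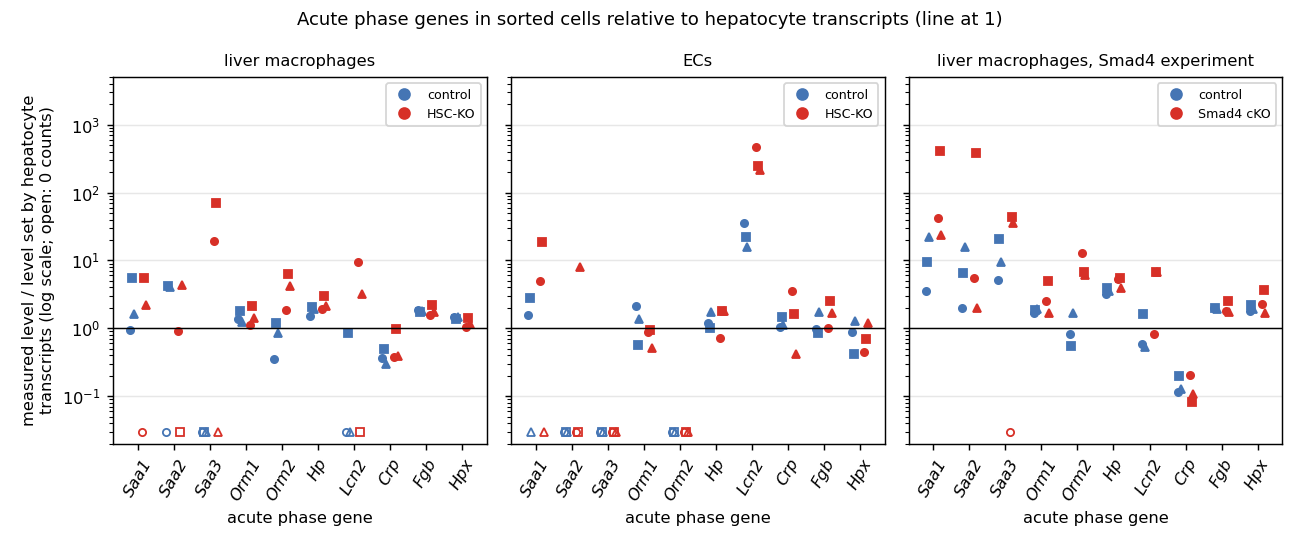
Measured level of each acute phase gene in each sorted library divided by the level set by that library's hepatocyte transcripts, on a log axis with the line at 1 and open symbols for libraries with 0 counts. *Fgb*, *Hpx*, *Hp* and *Orm1* lie near the line in macrophages and ECs of HSC-KO mice and their controls, *Lcn2* lies 15.8 to 476 times above it in ECs, and *Saa1* and *Saa2* lie far above it in Smad4 cKO replicate 2.

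No member was called in HSC-KO macrophages by edgeR (8 tested, none at an unadjusted p under 0.05) or by DESeq2, while 11.7% of the 16337 genes tested were called and 33.1% had an unadjusted p under 0.05. All 8 tested members had negative log2 fold changes, from -1.84 to -0.46, with a median of -0.84 beside 0.04 over all genes tested, of which 52.7% were positive. The 9 hepatocyte markers had the same sign, with a median of -0.84. *Fgb*, for example, was at 23.2, 66.2 and 81.1 CPM in control replicates 1 to 3 and at 31.7, 28 and 43.6 CPM in HSC-KO replicates 1 to 3, and *Hp* at 9.80, 40.8 and 44.9 CPM and 14.5, 14.1 and 19.4 CPM. The groups overlapped for all members, as they did for all but 40.3% of the genes tested, and control replicate 1 was low for most of them, as it was in hepatocyte markers. Without control replicate 1, 3 members were called lower, *Hp* (-1.42, adjusted p = 0.00446), *Orm1* (-1.35, 0.0273) and *Fgb* (-1.10, 0.0177). With the summed hepatocyte markers as a covariate none was called. *Saa1* and *Saa2* stayed at or under 0.859 CPM in these 6 libraries, *Saa3* was at 0 in all 3 controls and at most at 10 counts in HSC-KO libraries, and *Lcn2* was at 0 to 23 counts.

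In ECs of HSC-KO mice no member was called by edgeR (6 tested, 2 of them at an unadjusted p under 0.05) or by DESeq2, beside 13.7% called and 32.6% at that p among the 16053 genes tested. The 2 were *Orm1* and *Hp*. *Orm1* was at 1.15, 0.307 and 0.475 CPM in control ECs and at 0.191, 0.181 and 0.134 CPM in HSC-KO ECs (log2 fold change -1.92, adjusted p = 0.0882 in edgeR), and *Hp* was at 3.42, 2.91 and 3.18 CPM and 0.721, 1.62 and 2.16 CPM (-1.08, adjusted p = 0.116). For both the groups did not overlap, as for 40.4% of all genes tested, and the hepatocyte markers also had negative log2 fold changes in ECs (9 of 9, with 2 called and a median of -0.81). When the filter asked for 10 counts in each library, *Orm1* was called (-1.91), whereas without control replicate 1 it was -1.20 (adjusted p = 0.345 in edgeR) and with the hepatocyte sum as a covariate -0.63 (adjusted p = 0.775). *Saa3* and *Orm2* had 0 counts in all 6 EC libraries, which allows up to 3 counts in each, or 0.0318 to 0.0485 CPM.

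*Lcn2* was above the hepatocyte-set level in all 6 EC libraries. It was at 1.23, 0.776 and 0.353 CPM in control ECs and at 1.76, 0.809 and 0.929 CPM in HSC-KO ECs, on 26 to 166 counts. These levels were 15.8 to 35.2 times the hepatocyte-set level in controls and 211 to 476 times that level in HSC-KO ECs, where the liver level used as reference was itself lower. On few counts, *Saa1* reached 18.5 times that level in HSC-KO EC replicate 2 (10 counts) and *Saa2* 8.03 times in replicate 3 (4 counts), and *Crp* was at 0.415 to 3.49 times it over the 6 EC libraries. For *Lcn2* the groups overlapped in CPM, with a log2 fold change of 0.57 (95% interval -0.75 to 1.88, adjusted p = 0.551 in edgeR). Of the 12 neutrophil markers, 9 were at 0 in all 6 EC libraries, *S100a8*, *S100a9* and *Ly6g* among them, while *Ltf* and *Csf3r* were called higher in HSC-KO ECs (3.26 to 3.66 CPM and 1.11 to 1.28 CPM against at most 0.0543 CPM in controls). The list summed to 0 to 0.0543 CPM in control ECs and 4.55 to 4.77 CPM in HSC-KO ECs, and its part in the level of *Lcn2* was not tested.

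Of the other positive acute phase genes 5 of 19 tested were called in HSC-KO macrophages, 4 lower and 1 higher, beside 11.7% of all genes, and 4 of 17 tested were called in HSC-KO ECs, 2 in each direction, beside 13.7%. *Lbp*, which encodes the binding protein of bacterial lipopolysaccharide, fell from 36.2 to 44.8 CPM in controls to 1.02 to 1.99 CPM (log2 fold change -4.86, adjusted p = 7.19e-05 in edgeR). *Il1rn*, the interleukin 1 receptor antagonist, fell from 75.7 to 98.3 CPM to 9.84 to 11.8 CPM (-2.98), *Cfb* fell by 2.41 on the log2 scale and *Saa4*, at 0.295 to 1.24 CPM in controls, fell by 4.86. *Cp*, which encodes the copper protein ceruloplasmin, rose from 14.4 to 18.3 CPM to 105 to 196 CPM (3.09, adjusted p = 0.000237). *Saa4* rested on 0, 0 and 6 counts in HSC-KO macrophages. Without HSC-KO replicate 3 the log2 fold change was -8.80, and the call was lost without any 1 of the other 5 libraries, with adjusted p up to 0.148 in edgeR.

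*Lbp* in control macrophages was 26.3 to 118 times the hepatocyte-set level and 2.84 to 3.77 times it in HSC-KO macrophages. *Il1rn* stood 381 to 4503 times above that level over the 6 libraries. In ECs of HSC-KO mice *Lrg1*, which encodes a glycoprotein that modulates TGF-beta signals in vessels, rose from 9.29 to 36.8 CPM to 128 to 591 CPM (3.52, adjusted p = 0.0140 in edgeR, and 0.0506 without control replicate 3), and *Cfb* rose from 20.2 to 37.3 CPM to 102 to 233 CPM (2.52, adjusted p = 0.00355). With the hepatocyte sum as a covariate both calls were lost in edgeR (3.85, adjusted p = 0.185, and 2.84, adjusted p = 0.0508). Without HSC-KO replicate 1, the library at 591 CPM, the log2 fold change of *Lrg1* was 2.51. *Mt1* and *Mt2* fell by 5.46 and 6.41 on the log2 scale, from 189 to 252 CPM to 1.52 to 11.0 CPM for *Mt1*. In the livers *Lrg1* had the opposite sign, -0.63, with an adjusted p of 0.359 in edgeR, and whether it differs from the ECs was not tested.

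Of the 8 cytokine genes, 5 were tested in HSC-KO macrophages and 3 were called, 2 lower and 1 higher, beside 11.7% of all genes, and 2 were tested in ECs and both were called lower, beside 13.7%. In HSC-KO macrophages *Il6* fell from 4.68, 4.69 and 3.84 CPM to 0, 0 and 0.0986 CPM (log2 fold change -7.00, adjusted p = 0.00394 in edgeR). The size of this fold is uncertain near 0 counts. Left out 1 at a time, the libraries gave -11.5 (without HSC-KO replicate 3) to -6.43, all called. *Il1a* fell from 4.78 to 6.81 CPM to 1.38 to 2.41 CPM (-1.78, adjusted p = 0.00677). *Osm*, which encodes oncostatin M, a cytokine of the IL-6 family, rose from 0.122 to 0.294 CPM to 10.2 to 14.1 CPM (5.95, adjusted p = 8.33e-05). *Il1b* was at 402 to 709 CPM in controls and 70.1 to 542 CPM in HSC-KO macrophages, and the groups overlapped. Markers of several cell types moved in the same macrophage libraries. The 8 macrophage markers, which include *Clec4f* and *Vsig4* of KCs, summed to 42070 to 45199 CPM in controls and 13529 to 14918 CPM in HSC-KO libraries. Of their log2 fold changes 6 were negative (3 called lower) and 2 were positive. The 8 endothelial markers summed to 346 to 533 and 57.2 to 121 CPM (2 called lower), and the 5 lymphocyte markers to 11.0 to 19.7 and 32.2 to 108 CPM (2 called higher). Their part in the cytokine levels was not tested.

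On the receiving side few genes were called, in macrophages 1 of 7 receptor, 1 of 8 transcription factor and 1 of 6 feedback genes tested beside 11.7% of all genes, and in ECs 2 of 7, 1 of 8 and 1 of 6 beside 13.7%. *Lifr*, a receptor chain for leukemia inhibitory factor and oncostatin M, rose in HSC-KO macrophages by 2.25 on the log2 scale and *Socs3* by 1.25 (adjusted p = 0.00148 and 0.00770 in edgeR). In ECs *Il6st* fell from 1532 to 1617 CPM to 189 to 432 CPM (-2.43, adjusted p = 0.00169). *Lifr* fell by 1.33 and *Socs1* by 1.07 on the log2 scale in ECs, both with an adjusted p just under 0.05 (0.0420 and 0.0475). Of the transcription factors, *Cebpa* fell in ECs by 1.46 (adjusted p = 0.00351, and 0.0732 with the hepatocyte sum as a covariate) and *Hnf4a* fell in macrophages by 4.92, from 0.993 to 2.66 CPM in controls to at most 0.0767 CPM (adjusted p = 0.0142, and 0.0527 without control replicate 3). *Il1a* fell in ECs from 15.7 to 38.0 CPM to 0 to 0.721 CPM (-6.20, adjusted p = 0.00503) and *Il1b* from 0.427 to 0.841 CPM to 0 to 0.0856 CPM (-3.85, adjusted p = 0.03). All 8 macrophage markers were also lower in every HSC-KO EC library than in any control EC library, with 5 called and sums of 36.2 to 43.0 CPM in controls and 3.30 to 6.49 CPM in HSC-KO ECs, and their part in these levels was not tested. *Il1a* in control ECs was above its level in control macrophages, whereas *Il1b* was far below its level there. The EC calls of *Il1b*, *Socs1* and *Lifr* were each lost when 1 of 4 or more of the 6 libraries was left out, with adjusted p-values up to 0.0890, 0.132 and 0.138 in edgeR. *Igf1*, counted here with the negative acute phase genes, fell by 1.25 in macrophages and rose by 6.72 in ECs.

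**Figure D4:**
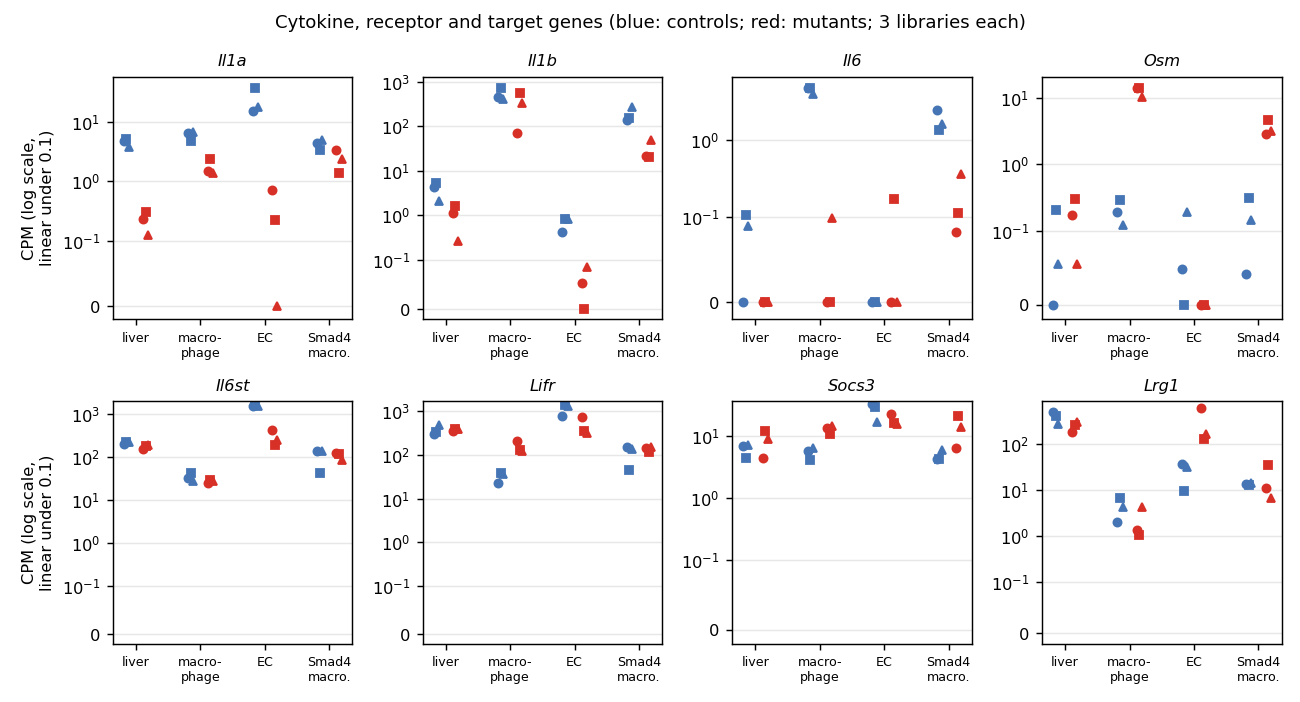
CPM of 8 genes upstream or downstream of the acute phase response in every library of the 4 comparisons, with controls in blue and mutants in red (log axis, linear under 0.1 CPM). *Il1a* is lower in mutant libraries of livers, macrophages and ECs of HSC-KO mice, *Il6* is lower and *Osm* higher in both macrophage comparisons, and *Il6st* is lower and *Lrg1* higher in ECs.

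In Smad4 cKO macrophages 1 of the 10 members was called, *Orm2*, higher, beside 5.43% of the 17517 genes tested and 2.76% called higher. At an unadjusted p under 0.05 there were 2, *Orm2* and *Saa1*, beside 21.4%. *Orm2* was at 0.134, 0.0996 and 0.184 CPM in Smad4FF libraries (9 to 19 counts) and at 0.700, 1.21 and 0.394 CPM in Smad4 cKO libraries (33 to 140 counts). The groups did not overlap, as for 29.4% of all genes tested. Its log2 fold change was 2.45 (95% interval 1.16 to 3.75, adjusted p = 0.0389 in edgeR), and its level relative to hepatocyte transcripts was 0.545 to 1.68 in Smad4FF and 6.19 to 12.9 in Smad4 cKO libraries. In edgeR the call was lost when any 1 of 5 libraries was left out, with adjusted p-values up to 0.126, and was kept without cKO replicate 3. Leaving out 1 library gave log2 fold changes of 1.96 to 2.76, and with the replicate number as a block the call was lost (2.34, adjusted p = 0.142 in edgeR).

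*Saa1* and *Saa2* were raised in a single Smad4 cKO library. *Saa1* was at 0.443, 1.31 and 1.84 CPM in Smad4FF replicates 1 to 3 and at 1.73, 55.0 and 1.16 CPM in Smad4 cKO replicates 1 to 3, the middle value resting on 6391 counts. *Saa2* was at 0.155, 0.564 and 0.824 CPM and at 0.144, 32.1 and 0.0597 CPM, with 3726 counts in cKO replicate 2. In that library *Saa1* was 406 times and *Saa2* 379 times the hepatocyte-set level, whereas *Alb*, at 150 CPM, lay within the range of the Smad4FF libraries (117 to 216 CPM). Both levels were also above those of the control and HSC-KO livers, where *Saa1* reached 29.4 CPM and *Saa2* 20.6 CPM.

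The same library was the highest of the 6 for *Saa3*, *Orm1*, *Hp*, *Lcn2*, *Fgb* and *Hpx*, and for *Socs3* at 20.8 CPM and *Saa4* at 3.98 CPM. Log2 fold changes over all 6 libraries were 4.01 for *Saa1* (95% interval 0.54 to 7.48, adjusted p = 0.171 in edgeR) and 4.38 for *Saa2* (-0.34 to 9.11, adjusted p = 0.269). Without cKO replicate 2 they were 0.27 and -2.31, and *Fgb* (-1.53, adjusted p = 0.0208) and *Hpx* (-1.39, adjusted p = 0.0334) were called lower while *Orm2* was not called (adjusted p = 0.0942). Hepatocyte markers in the cKO libraries were at 0.214, 0.705 and 0.252% of the liver level, so that replicate 2 was also the highest for these, and at 0.432 to 0.721% in Smad4FF. *Saa1* and *Saa2* were above the hepatocyte-set level in all 6 libraries of the *Smad4* experiment (at least 3.54 and 1.97 times it), while *Hp* was at 3.24 to 5.44 and *Crp* at 0.0809 to 0.208 times it in all 6.

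In Smad4 cKO macrophages 4 of the 19 other positive acute phase genes were called, beside 5.43% of all genes. *Cp* rose from 12.6 to 14.6 CPM to 61.2 to 75.7 CPM (2.34, adjusted p = 0.000136 in edgeR), whereas *Il1rn* fell by 4.09, *Cfb* by 2.43 and *C3* by 1.08 on the log2 scale. Among the cytokines *Il6* fell by 3.28 and *Il1b* by 2.59 and *Osm* rose by 4.43. Calls of *C3*, *Cfb* and *Il6* were lost when 1 of 5, 4 and 3 of the libraries was left out (adjusted p up to 0.152, 0.154 and 0.0630 in edgeR), and that of *Il1b* without cKO replicate 1 (0.0524). *Trf*, the transferrin gene, rose by 1.67. Of 7 receptor, 9 transcription factor and 6 feedback genes none was called by edgeR (0, 1 and 3 at an unadjusted p under 0.05). Log2 fold changes of the most abundant were 0.02 for *Tnfrsf1a* and 0.33 for *Lifr*, -0.17 for *Stat3* and -0.01 for *Cebpa*, and -0.54 for *Nfkbia* and 0.64 for *Nfkbiz*. *Cp*, *Il1rn*, *Cfb*, *Il6* and *Osm* were thus called, over all libraries, in the same direction in HSC-KO and in Smad4 cKO macrophages, which come from separate sets of mice. Macrophage markers were lower in both, in the *Smad4* experiment at a sum of 41481 to 49857 CPM in Smad4FF and 9616 to 13232 CPM in Smad4 cKO libraries with 5 of 8 called, and their part in these calls was not tested.

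No member differed between the effects in HSC-KO and Smad4 cKO macrophages by the interaction term of edgeR (10 tested, 3 at an unadjusted p under 0.05) or of DESeq2, beside 2.61% called and 16.3% at that p among 18149 genes. None differed between HSC-KO macrophages and HSC-KO ECs either (9 tested, none at an unadjusted p under 0.05 and none called by DESeq2), beside 12.3% called and 29.7% at that p among 18213 genes. The latter fit treats libraries of the 3 mice that gave both cell types as independent.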

How the data were processed

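The deposited values are raw counts per gene symbol in 4 tables, which the authors made with HISAT2 (alignment to mm10, or GRCm38) and featureCounts, with 1 column per library. Versions, annotation and use of strand are not given in the sources used here. Here genes that passed edgeR's filter (minimum count 10, minimum total 15) were scaled with TMM and tested per table with edgeR 4.0.16 quasi-likelihood fits (limma 3.58.1, R 4.3.3), adjusted by Benjamini-Hochberg over all genes tested and called at an adjusted p under 0.05 and an absolute log2 fold change above 1. Intervals are 95%. The effects were compared by interaction terms on joined tables. DESeq2 1.42.0, other scalings and filters, each library left out, replicate blocks and marker or *Xist* covariates were alternatives. The fits were also run on simulated counts, and the outcome is not given here. Levels per kilobase use the APPRIS principal transcript of GENCODE vM21. Named were all members, the called genes of other lists (at most 5 per list, or the 2 most abundant where none was called) and the 5 genes most like *Saa1* and *Lcn2*. Other values of *Il1b*, *Il6*, *Socs3*, *Saa4*, *Mt1* and *Lrg1* were added after they were seen. Members and lists were chosen with earlier results of these data known.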

Additional observations from a re-analysis of the deposited data

How the results depend on the processing

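The count of called acute phase genes moved with the settings. In livers (1 called) it was 2 with DESeq2 and 0 with no filter beyond 1 count, with *Xist* as a covariate, with the neutrophil sum as a covariate and without any 1 library (0 to 0). In HSC-KO macrophages (0) it was 0 to 3 with 1 library left out, and in ECs it was 1 with 10 counts required per library. In Smad4 cKO macrophages (1) it was 0 with no filter, with 10 counts required per library and with the hepatocyte sum as a covariate, and 0 to 2 with 1 library left out. *Orm2*, the gene called there, kept a log2 fold change of 2.44 with no filter (adjusted p = 0.0508 in edgeR) and 2.78 with the hepatocyte sum (0.0598). The cause of these moves was not tested. With the hepatocyte sum as a covariate the EC calls of *Lrg1*, *Cfb*, *Il1b*, *Cebpa* and *Socs1* and the *Smad4* calls of *C3* (adjusted p = 0.155), *Cfb* (0.0806) and *Il6* (0.0662) were lost in edgeR, at folds that were larger for EC *Lrg1* (3.85), *Cfb* (2.84), *Il1b* (-4.33) and *Socs1* (-1.25) and *Smad4* *Il6* (-3.87) and smaller for EC *Cebpa* (-1.20) and *Smad4* *C3* (-0.84) and *Cfb* (-1.85).

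Signs turned as follows on the log2 scale. With *Xist* as a covariate in livers *Saa1* was 0.22 and *Saa2* 0.31, and with the neutrophil sum *Saa1* was 2.06, *Saa2* 2.89, *Orm2* 0.68 and *Lcn2* 1.74. The neutrophil sum separates the groups, and the values with it had adjusted p-values of 0.683 to 0.933 in edgeR. With the hepatocyte sum *Saa2* was 0.19 and *Orm2* 0.41 in macrophages, *Fgb* 0.084 and *Hpx* 0.50 in ECs, and *Hp* 0.79, *Fgb* 0.50 and *Hpx* 0.94 in the *Smad4* experiment. With library size alone *Fgb* was 0.086 in ECs, and *Hp* was 0.050 and *Hpx* 0.11 in the *Smad4* experiment. The median of all genes was then -0.12 in livers, 0.13 in macrophages, 0.30 in ECs and 0.19 in the *Smad4* experiment, beside -0.0098, 0.039, 0.0047 and 0.036 in the main fits. With 1 library left out the ranges were -0.68 to 0.32 for *Saa1*, -1.18 to 0.26 for *Saa2* and -0.15 to 0.13 for *Orm1* in livers, -0.97 to 0.016 for *Orm2* in macrophages and -0.42 to 0.066 for *Fgb* in ECs. In the *Smad4* experiment they were -2.31 to 4.96 for *Saa2*, -0.75 to 1.82 for *Saa3*, -1.17 to 0.88 for *Orm1*, -0.997 to 0.22 for *Hp* and -1.39 to 0.35 for *Hpx*. The summed liver ratio was 0.16 without TMM factors. With *Alb* alone the hepatocyte share was 0.231% in HSC-KO macrophages, 0.0573% in control ECs, 0.0266% in HSC-KO ECs, 0.206% in Smad4FF and 0.0987% in Smad4 cKO macrophages.

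With the replicate number as a block, 0 members were called in livers and 0 in Smad4 cKO macrophages, where *Orm1* was -0.22, and 271 genes in all were called in livers. The block also lost the EC calls of *Il1b* (-4.02, adjusted p = 0.0703), *Lifr* (-1.41, 0.0831) and *Socs1* (-1.09, 0.0755) and the *Smad4* calls of *C3* (-1.13, 0.104) and *Cfb* (-2.79, 0.0501) in edgeR, at folds as large as or larger than without it. Same-numbered libraries had correlations of 0.0624 to 0.207 in livers, -0.0769 to 0.27 in macrophages, -0.0547 to 0.265 in ECs and -0.277 to 0.0815 in the *Smad4* experiment. The control library correlated best with its own number for liver replicates 2 and 3, macrophage replicates 1 and 3, EC replicates 1 and 2 and *Smad4* replicate 2, and not for the others. Whether same-numbered libraries share more than a number was not tested. Over all genes called, leaving out 1 liver gave 188 to 451.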
